A study of Caenorhabditis elegans with 15 samples.

Results

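The nuclear hormone receptor genes of Caenorhabditis elegans were followed across 15 arrays of whole adult worms. The set holds every gene whose name begins with nhr and 5 receptors with older names (daf-12, unc-55, odr-7, fax-1 and sex-1). A gene was taken where at least 1 probe set carried its symbol and no other symbol in the array annotation. Where a gene had several such probe sets, the one with the highest mean log2 signal over the 15 arrays stood for it. This gave 259 genes, read by 302 probe sets, of 17118 genes with a probe set of their own on the array. All 259 matched a gene of the RefSeq table, which lists 248 of them as protein coding and 11 as pseudogenes. On the genome, 109 of them lie beside another gene of the set. A further 14 probe sets that name a receptor together with another gene were left out, and nhr-62, a fat metabolism receptor, was measured only by one of these.

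Nuclear hormone receptors are transcription factors that bind DNA through a zinc finger domain and, in many members, bind a small lipophilic ligand such as a steroid, a bile acid-like hormone or a fatty acid through a second domain. The ligand, the partner receptor and coregulators such as the Mediator subunit MDT-15 decide whether target genes are switched on or off. Nematodes carry an unusually large family, most of it expanded from an HNF4-like ancestor, and the ligands of most members are not known. Members with known roles act in the entry into and exit from dauer (daf-12), molting (nhr-23, nhr-25), fat metabolism (nhr-49, nhr-80), the propionate and methionine branches of vitamin B12 metabolism (nhr-10, nhr-68, nhr-114), defence against foreign compounds (nhr-8), neuronal identity (unc-55, odr-7, fax-1) and sex determination (sex-1).

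The study asked what lake water and a cyanobacterial culture do to the worm transcriptome. Worms of the wild-type strain N2 lived at 20 °C on NGM agar with OP50 bacteria, were exposed throughout life, and were collected on day 1 of adulthood. The 5 groups of 3 biological replicates were water (control), Z-medium (control), filtered water of Lake Stößensee taken in August, the same taken in October, and a filtered batch culture of the cyanobacterium Microcystis aeruginosa. Lake samples were dosed at 200% and the culture at 40% of their original AOBr content, AOBr being usually read as adsorbable organic bromine. The filtrates were also lyophilised according to a bracketed remark in the labels, which do not say whether the controls were handled in the same way. The labels name water as the control of both lake samples and Z-medium as the control of the culture. August, October and Z-medium were each compared with the same 3 water arrays, so these comparisons are not independent of each other. Whole worms were extracted, so a lower signal from fewer cells of a type and one from less RNA per cell cannot be told apart.

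Each array carries 22625 probe sets, and array medians lay between 99.2 and 113. Markers of intestine, hypodermis, muscle, neurons and germ line were present on every array, for instance the yolk protein gene vit-2 at 8602 to 10640 and the adult collagen gene col-19 at 5339 to 7004, the neuronal gene snb-1 at 2654 to 4245 and the sperm gene msp-142 at 1866 to 5524. Of these lists only the sperm genes spe-9 and spe-38 and the neuronal gene unc-31 lay below the filter described next. The replicate 1 arrays of all groups stood apart from the others, and 18.1% of tested probe sets differed between them and replicates 2 and 3, as described for the receptors at the end. The signal is the MAS5 value on a linear scale, and a probe set was tested where its mean log2 signal over the 15 arrays was at or above the 40th percentile, a linear signal of 57.9.

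Most receptor genes gave a low signal in whole adults. The mean signal was below the filter for 152 of the 259 genes, at 0.860 to 55.9, and 107 were tested. This is 41.3% of the set, against 59.9% of all genes with a probe set of their own. Just below the filter lay nhr-103 at 55.9, nhr-60 at 55.5 and nhr-110 at 54.9, and just above it nhr-115 at 58.0, nhr-204 at 59.0 and nhr-171 at 59.5. Among the 107 tested genes the mean signals ran from 58.0 to 2006 with a median of 110.2, and 75 were above the filter level on every array. Of the 152 others, 31 exceeded that level on at least 1 array. The tested genes include 20 read by a probe set that the array's own suffix marks as matching several transcripts, so the signals of related receptors may be mixed there.

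The neuronal receptors odr-7, unc-55 and fax-1 were among the genes below the filter. The AWA olfactory neuron receptor odr-7 lay at 6.41 to 54.6 on single arrays, unc-55, which acts in motor neurons, at 6.32 to 25.8, and fax-1, which acts in interneurons, at 3.89 to 48.6. Also below it were the molting-related nhr-85 at 3.78 to 34.95 and nhr-41 at 14.3 to 61.6, the tailless relative nhr-67 at 35.4 to 71.2, and nhr-176, known for thiabendazole metabolism, at 17.2 to 54.8. Their changes between groups were not tested.

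Exposure to the culture was the one exposure in which receptor genes passed the test. Of 107 tested genes, nhr-114 and nhr-106 fell and 0 rose (limma, adjusted p under 0.05 over all 13529 tested probe sets). This is 1.87% of the tested receptors, beside 1.54% of all probe sets (1.19% lower and 0.355% higher), so the share of receptors called was near the background. Of the 107, 12 had an unadjusted p under 0.05, which is 11.2% against 15.2% of all probe sets, and 10 of the 12 were lower in the culture. Culture and Z-medium arrays did not overlap for 17 receptors, or 15.9%, against 19.1% of all probe sets, with 5 higher (7.85% of all probe sets were) and 12 lower (11.3%) in the culture. The median log2 difference of the tested receptors was -0.05 and that of all tested probe sets 0.00, and 40.2% of receptors were above 0 against 50.8% of all. No tested receptor reached a 2-fold difference in any comparison of exposure groups.

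The gene nhr-114 encodes an HNF4-like receptor needed for germline integrity on some bacterial diets and for the expression of methionine and S-adenosylmethionine cycle genes. Its signal was 1572, 1640 and 1401 on the Z-medium arrays and 1157, 860.3 and 935.3 on the culture arrays. On the other arrays it was 1186, 1829 and 1382 in water, 1469, 1533 and 1274 in August, and 1388, 1433 and 1348 in October. Every culture array lay below every other array of the series, water replicate 1 being the nearest. The mean was 984 ± 154 (SD, n = 3) in the culture and 1538 ± 123 (SD, n = 3) in Z-medium, a 1.57-fold lower level (log2 difference -0.65 ± 0.14, SE; limma adjusted p = 0.0304). Within each replicate number the culture array was also the lower one. The call was lost, with the log2 difference between -0.63 and -0.56, when Z-medium replicate 1 (adjusted p = 0.109), Z-medium replicate 2 (0.106), culture replicate 2 (0.142) or culture replicate 3 (0.115) was left out, and it held without the 5 replicate 1 arrays (log2 difference -0.76, adjusted p = 0.0114).

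The second receptor that fell was nhr-106, a gene without a role that could be stated here. It read 103.7, 103.2 and 106.3 in Z-medium and 60.8, 45.8 and 60.5 in the culture. In water it read 88.6, 103.9 and 74.3, in August 85.9, 75.9 and 92.3, and in October 92.1, 97.6 and 97.3. The 3 culture arrays were the lowest of the 15, and their mean of 55.7 ± 8.57 (SD, n = 3) lay below the filter level. The fall from the Z-medium mean of 104 ± 1.70 was 1.80-fold with the filter level in place of the culture mean (log2 difference as measured -0.92 ± 0.18, SE; limma adjusted p = 0.0177). It did not pass without Z-medium replicate 1 (adjusted p = 0.0689), replicate 2 (0.0629) or replicate 3 (0.0542), without culture replicate 2 (0.0872), or without the 5 replicate 1 arrays (0.0544), the log2 difference then lying between -0.99 and -0.78.

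**Figure D1:**
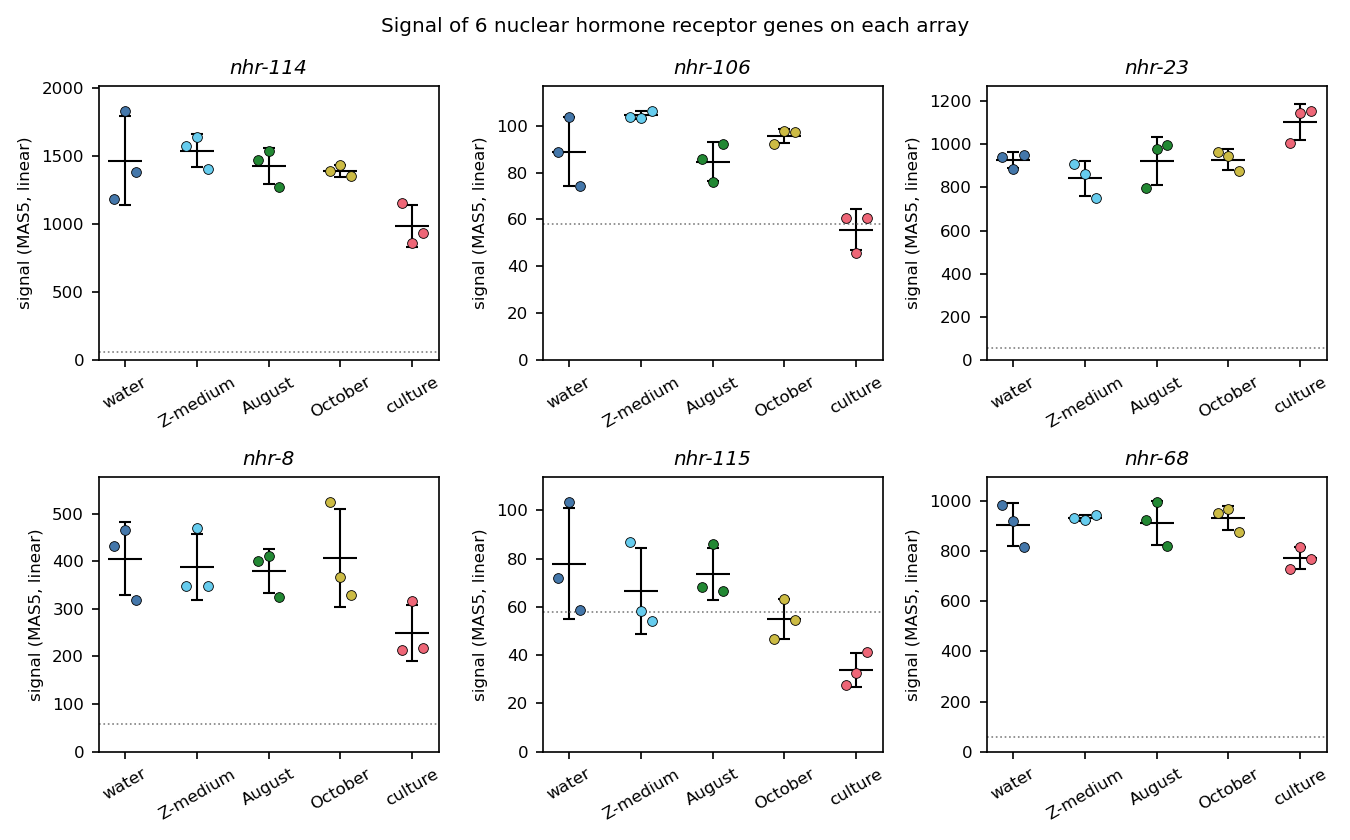
MAS5 signal (linear axis from 0) of nhr-114, nhr-106, nhr-23, nhr-8, nhr-115 and nhr-68 on each of the 15 arrays, by group. Points are arrays in the order of replicates 1 to 3, black bars the mean ± SD of 3 arrays, and the dotted line the filter level of 57.9; the culture arrays lie lowest for nhr-114 at 860.3 to 1157 and for nhr-106 at 45.8 to 60.8.

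For both genes a centring of each array on its median, which moves all probe sets by 0.11 in this comparison, gave smaller differences that did not pass: -0.54 for nhr-114 (limma adjusted p = 0.101) and -0.81 for nhr-106 (0.0578). Nor did nhr-114 pass without the intensity trend (0.0649) or nhr-106 with only the 6 arrays of these groups in the fit (0.0936). Markers of the germ line also differed between these groups without passing. All 6 tested sperm genes were lower in the culture (median log2 difference -0.58), with summed sperm signals of 3451 to 6727 against 5235 to 9500 in Z-medium and spe-38 and spe-9 below the filter. All 8 oocyte and eggshell genes were higher (median 0.16), with summed signals of 64130 to 68840 against 54100 to 64440. The part of these cell types in the receptor differences was not tested.

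The receptors of the propionate branch of vitamin B12 metabolism did not pass. The propionate shunt activator nhr-68 gave 930, 922 and 946 in Z-medium and 729.5, 818 and 768 in the culture, so these arrays did not overlap. The log2 difference was -0.27 ± 0.09 (SE; limma adjusted p = 0.170). For nhr-10, which acts above nhr-68 in the same pathway, the arrays overlapped, at 365.8 to 428.7 in Z-medium and 365.1 to 470.1 in the culture. The 95% interval of its log2 difference ran from -0.23 to 0.28.

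Neither of the steroid receptor relatives daf-12 and nhr-8 passed in the culture. The dafachronic acid receptor daf-12 read 393, 399 and 443 in Z-medium and 413, 451 and 429.9 in the culture, with an interval of the log2 difference from -0.12 to 0.26. Its relative nhr-8, known for drug resistance and sterol homeostasis, read 348, 469 and 348 in Z-medium and 213, 316.5 and 217 in the culture, a log2 difference of -0.65 ± 0.21 (SE; limma adjusted p = 0.133). The culture arrays of nhr-8 were the lowest of the series, with culture replicate 2 just under water replicate 3 at 318.5.

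Of the molting receptors, nhr-23, the ROR relative that drives each molt, was the one furthest from 0 in the culture. It read 910, 864 and 749.6 in Z-medium and 1005, 1143 and 1154 in the culture. No culture array overlapped with any other array of the series. The log2 difference was 0.39 ± 0.10 (SE; limma adjusted p = 0.0754), and it passed without the 5 replicate 1 arrays (0.51, adjusted p = 0.0187). A second, dimmer probe set of nhr-23 gave a log2 difference of -0.13 with overlapping arrays, so the 2 probe sets disagree. The nuclear receptor nhr-25, an SF-1 relative that acts in the epidermis, spread from 110.7 to 271.8 in Z-medium and from 109.4 to 305 in the culture, with an interval of the log2 difference from -0.75 to 0.82.

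Fat metabolism receptors differed little or with a wide error in the culture. The central regulator nhr-49 read 2034, 1992 and 2038 in Z-medium and 1963, 2062 and 2167 in the culture, an interval from -0.14 to 0.20 on the log2 scale. The desaturase regulator nhr-80 read 96.0, 172.5 and 159.5 in Z-medium and 151, 109.9 and 68.5 in the culture. Its log2 difference was -0.40 ± 0.28 (SE; limma adjusted p = 0.515), with culture replicate 1 above and replicates 2 and 3 below the Z-medium arrays of the same number. Without the 5 replicate 1 arrays the log2 difference of nhr-80 was -0.94 (adjusted p = 0.0410). The HNF4-like nhr-64 read 129.2 to 152.7 in Z-medium and 166.1 to 176.2 in the culture, with no overlap and a log2 difference of 0.33 ± 0.17 (SE; adjusted p = 0.367).

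The immune regulator nhr-86, which activates pathogen response genes in the intestine, had overlapping arrays at 596 to 647 in Z-medium and 561 to 721 in the culture. Its interval of the log2 difference ran from -0.25 to 0.25. The interval of nhr-14, known from iron uptake, ran from -0.34 to 0.62, and that of the HIF-1 target nhr-57 from -0.56 to 0.16. The excretory cell receptor nhr-31, which controls proton pump genes, read 598.9, 679 and 632 in Z-medium and 496, 445 and 547 in the culture, a log2 difference of -0.36 ± 0.12 (SE; limma adjusted p = 0.171) without overlap.

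Among receptors of unstated function, nhr-115 had the lowest log2 difference of the 107 and did not pass. It read 86.9, 58.5 and 54.2 in Z-medium and 27.6, 32.4 and 41.4 in the culture, all 3 below the filter level and below every other array. The log2 difference was -0.96 ± 0.26 (SE; limma adjusted p = 0.0846), or 1.12-fold lower with the filter level in place of the culture mean. The log2 difference was -0.57 for nhr-3 (limma adjusted p = 0.181), -0.48 for nhr-100 (0.201), -0.47 for nhr-18 (0.287) and -0.37 for nhr-55 (0.240). The culture mean of nhr-18, 56.0, lay below the filter level. With that level in its place the difference was 1.34-fold, and the 95% interval of the log2 difference ran from -0.91 to -0.04. Leaving out culture replicate 3, at 421.5 against 235 and 242 for the others, moved nhr-3 to -0.84 (adjusted p = 0.0262). On the higher side nhr-78 read 77.2 to 93.7 in Z-medium and 109 to 123 in the culture (log2 difference 0.45, adjusted p = 0.160).

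**Figure D2:**
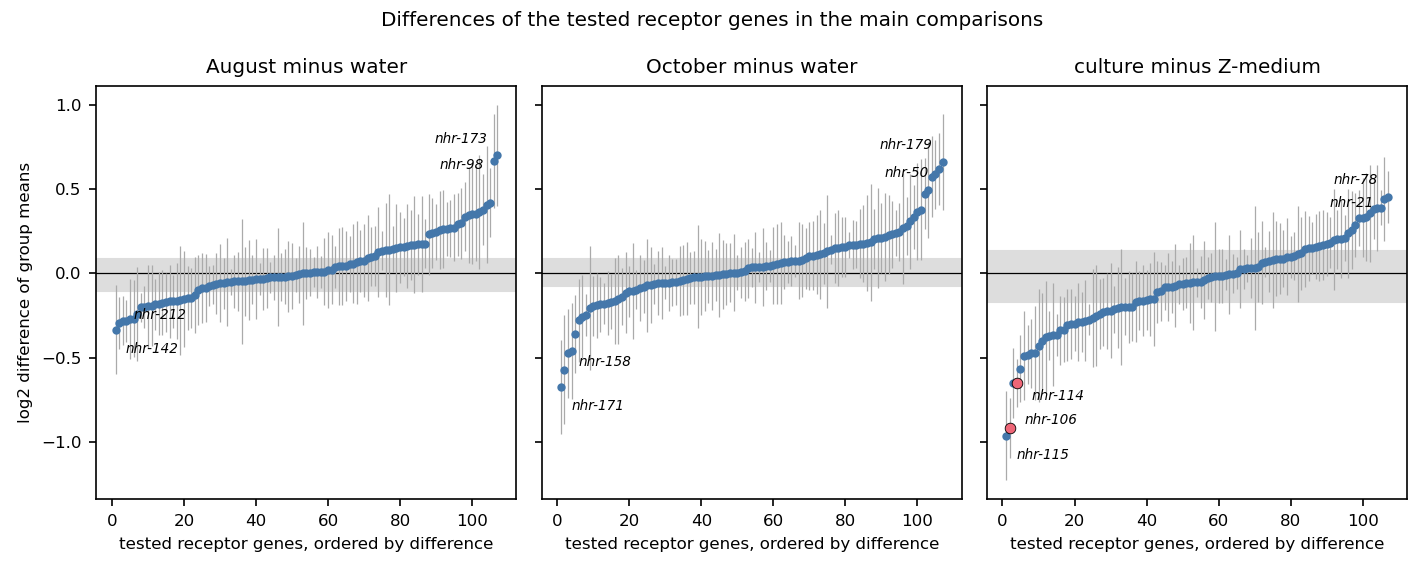
Log2 difference of group means for the 107 tested receptor genes, ordered within each of 3 comparisons, with the standard error of the fit as grey vertical lines and the middle 50% of all tested probe sets as a grey band. Large red points passed the test (nhr-114 and nhr-106 in the culture comparison), no point passed in the August and October comparisons, and the lowest value was -0.96 for nhr-115 and the highest 0.70 for nhr-173, whose water mean lay below the filter level.

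Genes that the receptors are known to act on were followed in the same comparison, from lists of reported targets and partners. The lists were chosen with earlier results of these data known, so their counts beside those of all probe sets are no test of a pathway. Of 9 methionine and S-adenosylmethionine cycle genes linked to nhr-114, 2 fell, 0 rose and 7 did not pass, with 8 of 9 below 0 and a median log2 difference of -0.19, beside 1.19% of all probe sets that fell and a median of 0.00 over all of them. Methionine synthase, metr-1, read 2608, 2649 and 2573 in Z-medium and 2153, 1960 and 1903 in the culture, a fall of 0.38 ± 0.09 on the log2 scale (log2 difference -0.38, SE 0.09; limma adjusted p = 0.0491). Its reductase mtrr-1 read 2834, 2452 and 2833 in Z-medium and 1979, 2089 and 1992 in the culture (log2 difference -0.42 ± 0.08, SE; adjusted p = 0.0132). Neither gene's arrays overlapped between Z-medium and the culture. Neither call held throughout. The gene metr-1 did not pass without Z-medium replicate 1 (adjusted p = 0.146), 2 (0.124) or 3 (0.0889) or culture replicate 2 (0.153) or 3 (0.187), and mtrr-1 did not pass without Z-medium replicate 1 (0.0714) or 3 (0.0527) or culture replicate 3 (0.0564), the log2 difference lying between -0.41 and -0.35 in these 8 cases. Nor did metr-1 pass after median centring (0.168) or under 5 other settings, namely no filter (0.0737), the 20th percentile filter (0.0628), log2 of signal plus 16 (0.0502), no intensity trend (0.0977) and only these groups in the fit (0.0760). For mtrr-1 these were median centring (0.0982), only these groups in the fit (0.0697) and the fit without the 5 replicate 1 arrays (0.0539). The methionine adenosyltransferase gene sams-1 had overlapping arrays, and its log2 difference had an interval from -0.28 to 0.28.

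Of 9 tested fat metabolism targets of nhr-49 and nhr-80, 2 fell and 0 rose (1.19% and 0.355% of all probe sets), with a median of -0.07. The stearoyl-CoA desaturase gene fat-7 read 3172, 2592 and 2697 in Z-medium and 1653, 1203 and 1237 in the culture, a 2.08-fold lower level (log2 difference -1.06 ± 0.12, SE; limma adjusted p = 1.98e-04). The hydroxyacyl-CoA dehydrogenase gene hacd-1 fell from 2447 ± 188 to 1677 ± 69.5 (SD, n = 3; log2 difference -0.54, adjusted p = 0.00957), and without Z-medium replicate 1 its adjusted p was 0.0518 (log2 difference -0.51) and after median centring 0.0635 (-0.43). The signals of fat-7 and its close paralog fat-6 may be mixed by their probes. For fat-6 the log2 difference was -0.29 (adjusted p = 0.148). The intestinal marker cpr-1, a cathepsin B-like protease gene, fell as well (log2 difference -0.72, adjusted p = 1.22e-04), the other 5 intestinal markers did not pass, and the summed signal of the 6 was 50880 to 64880 in the culture and 55550 to 62180 in Z-medium. Its part in the fat-7 difference was not tested.

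Of 5 tested detoxification and immunity genes linked to nhr-86, nhr-8, nhr-176 and nhr-14, 1 rose and 1 fell (0.355% and 1.19% of all probe sets). The infection response gene irg-4 read 611, 439 and 457 in Z-medium and 1288, 951.5 and 1191 in the culture, 2.28-fold higher (log2 difference 1.19 ± 0.17, SE; limma adjusted p = 0.00130). The P-glycoprotein transporter gene pgp-9 read 154.8, 175.5 and 175.9 in Z-medium and 90.0, 82.1 and 61.5 in the culture, 2.19-fold lower (log2 difference -1.13 ± 0.17, SE; adjusted p = 0.00259). The culture arrays lay above all Z-medium arrays for irg-4 and below all of them for pgp-9.

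None of 5 propionate shunt genes passed (4 below 0, median -0.09), nor of 4 coregulators including mdt-15 (3 above 0, median 0.09), nor of 3 tested genes of dafachronic acid synthesis. There the Rieske oxygenase gene daf-36 had a log2 difference of -0.58 ± 0.18 (SE; limma adjusted p = 0.133). None of 9 molting genes linked to nhr-23 and nhr-25 passed, with 7 below 0 and a median of -0.46.

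**Figure D3:**
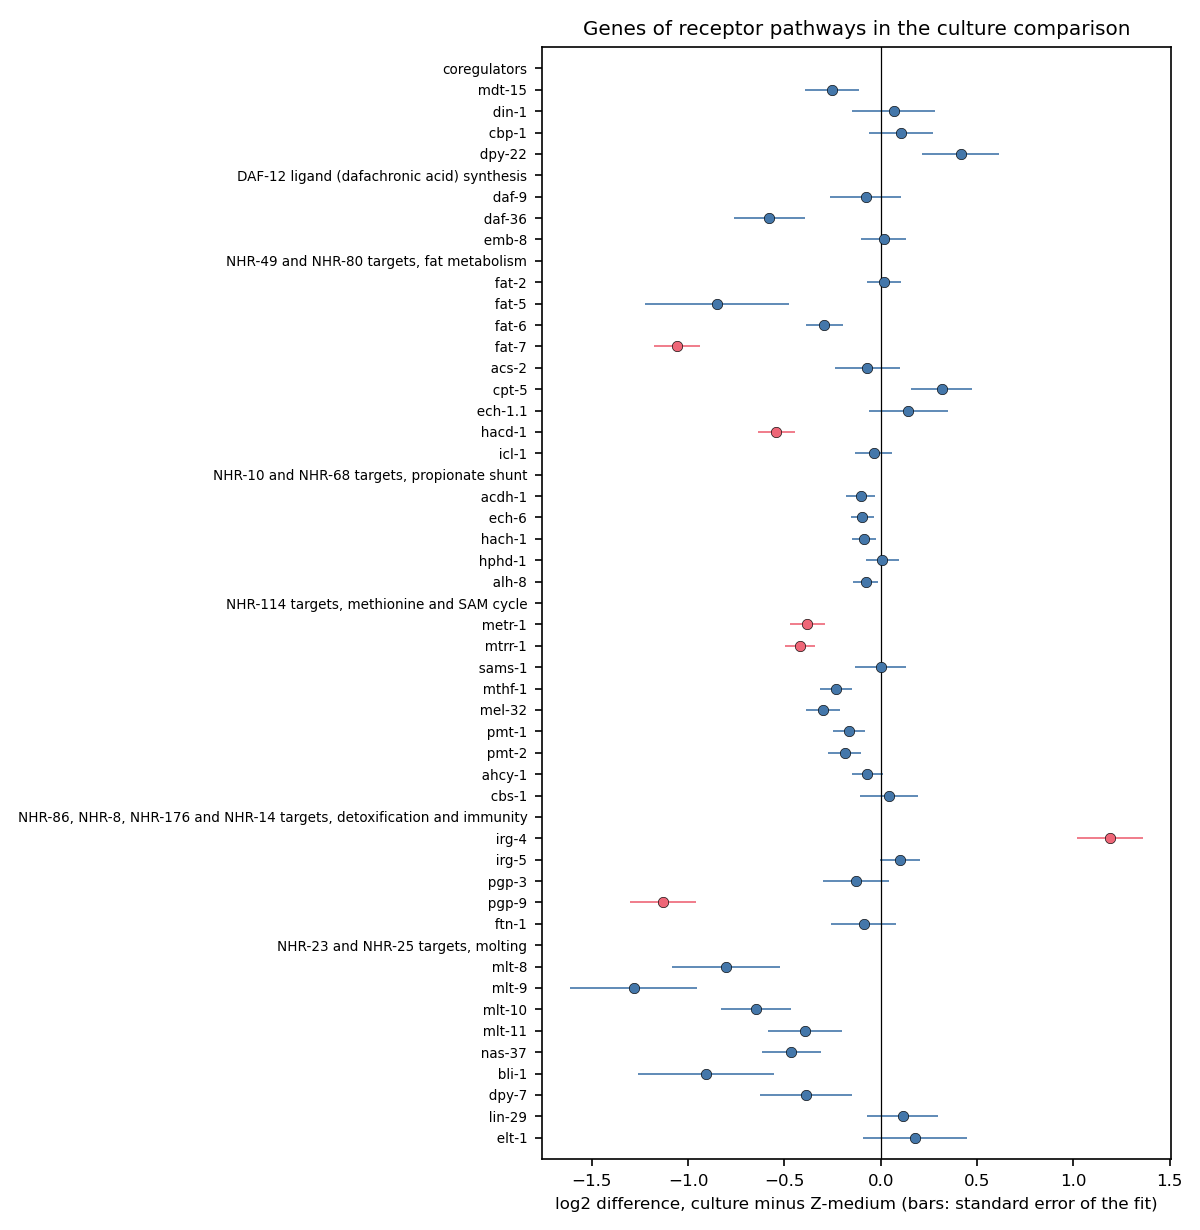
Log2 difference (culture minus Z-medium, horizontal axis) of genes that act with or under receptors, by list, with bars for the standard error of the fit. Red points passed the test: fat-7, hacd-1, metr-1, mtrr-1 and pgp-9 on the lower side, irg-4 on the higher side.

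In August lake water none of the 107 tested receptors passed (limma, smallest adjusted p = 1.00), and 0.00739% of all probe sets did. At an unadjusted p under 0.05 there were 4 receptors, or 3.74%, against 3.05% of all probe sets. August and water arrays did not overlap for 11 receptors, 10.3% against 7.19%, with 6 higher (3.33% of all probe sets were) and 5 lower (3.87%). The median log2 difference was 0.00 for receptors and -0.01 for all probe sets. The 4 with an unadjusted p under 0.05 were nhr-173 (log2 difference 0.70), nhr-98 (0.67), nhr-31 (-0.28) and nhr-97 (-0.20), each with an adjusted p of 1.00. The water mean of nhr-173 was 49.4, below the filter level. With that level in its place the difference was 1.38-fold, and the 95% interval of the log2 difference ran from 0.06 to 1.34. For nhr-97 the arrays read 576, 561.5 and 602 in water and 504, 492 and 518 in August, without overlap, and for nhr-98 they read 90.25, 38.8 and 69.1 in water and 84.7, 103.9 and 110.0 in August, with overlap.

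In October lake water again 0 of 107 receptors passed (limma, smallest adjusted p = 1.00), beside 0% of all probe sets. At an unadjusted p under 0.05 there were 6 receptors (5.61%, against 2.11% of all probe sets), 5 of them higher in October. The arrays did not overlap for 10 receptors (9.35% against 7.56%), 9 of them higher (3.75% of all probe sets were) and 1 lower (3.81%). The median log2 difference was 0.04, and 0.00 over all probe sets. The 6 were nhr-179 (log2 difference 0.66), nhr-50 (0.62), nhr-18 (0.59), nhr-102 (0.57), the HNF4-like nhr-69 (0.47) and nhr-171 (-0.68), with adjusted p values of 1.00. Of these, nhr-50, nhr-102 and nhr-179 had a water mean and nhr-171 an October mean below the filter level.

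Values against water are given side by side for nhr-50 and nhr-18, since October, August and Z-medium share the water arrays. For nhr-50 the water arrays read 55.4, 50.3 and 42.1. Z-medium read 78.5, 80.3 and 53.1, August 66.3, 55.3 and 70.3, and October 72.2, 82.5 and 71.5. The log2 difference from water was 0.62 in October, 0.50 in Z-medium and 0.38 in August, and water was the lowest of the 5 group means. For nhr-18 these differences were 0.59, 0.37 and 0.42. Z-medium against water called 0 of 107 receptors (limma; 0.0222% of all probe sets were called), and 1 receptor, nhr-50, had an unadjusted p under 0.05 (0.935%, against 2.34% of all probe sets). Arrays did not overlap for 7 receptors (6.54% against 6.72%), 5 of them higher in Z-medium (3.43% of all probe sets were) and 2 lower (3.29%).

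October against August, a comparison without the water arrays, also called 0 of 107 receptors (limma, smallest adjusted p = 1.00; 0.0148% of all probe sets were called). At an unadjusted p under 0.05 there were 4 receptors (3.74% against 2.59%), and 13 had arrays without overlap (12.1% against 7.55%), 10 of them higher in October (3.69% of all probe sets were) and 3 lower (3.86%). For nhr-97 the arrays read 504, 492 and 518 in August and 615, 648 and 655.5 in October (log2 difference 0.34 ± 0.09, SE; unadjusted p = 0.00124 in limma, adjusted p = 1.00). For nhr-49 they read 1882, 1919 and 1793 in August and 2156, 2207 and 2135 in October (log2 difference 0.22). The other 2 were nhr-55 (0.35) and nhr-153 (-0.41). Dimmer probe sets of nhr-97 and nhr-49 gave log2 differences of 0.09 and -0.0055 in this comparison, with overlapping arrays. The nhr-49 and nhr-80 target fat-7 was lower in October than in August (log2 difference -0.81 ± 0.12 SE, limma adjusted p = 0.0446). It was the only one of its 9 tested list members to pass. It read 4122, 3479 and 4171 in August and 2292, 2017 and 2422 in October, without overlap. The water arrays of fat-7 read 2454, 2350 and 2278, which overlapped with October and lay below every August array. The call was lost without August replicate 1 (adjusted p = 0.186) or 3 (0.446) or October replicate 1 (0.227), 2 (0.492) or 3 (0.115), the log2 difference then lying between -0.86 and -0.73. It was also lost with the 20th percentile filter (0.0559), after quantile normalization (0.0872), with no intensity trend (0.270) and with only these groups in the fit (0.130).

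**Figure D4:**
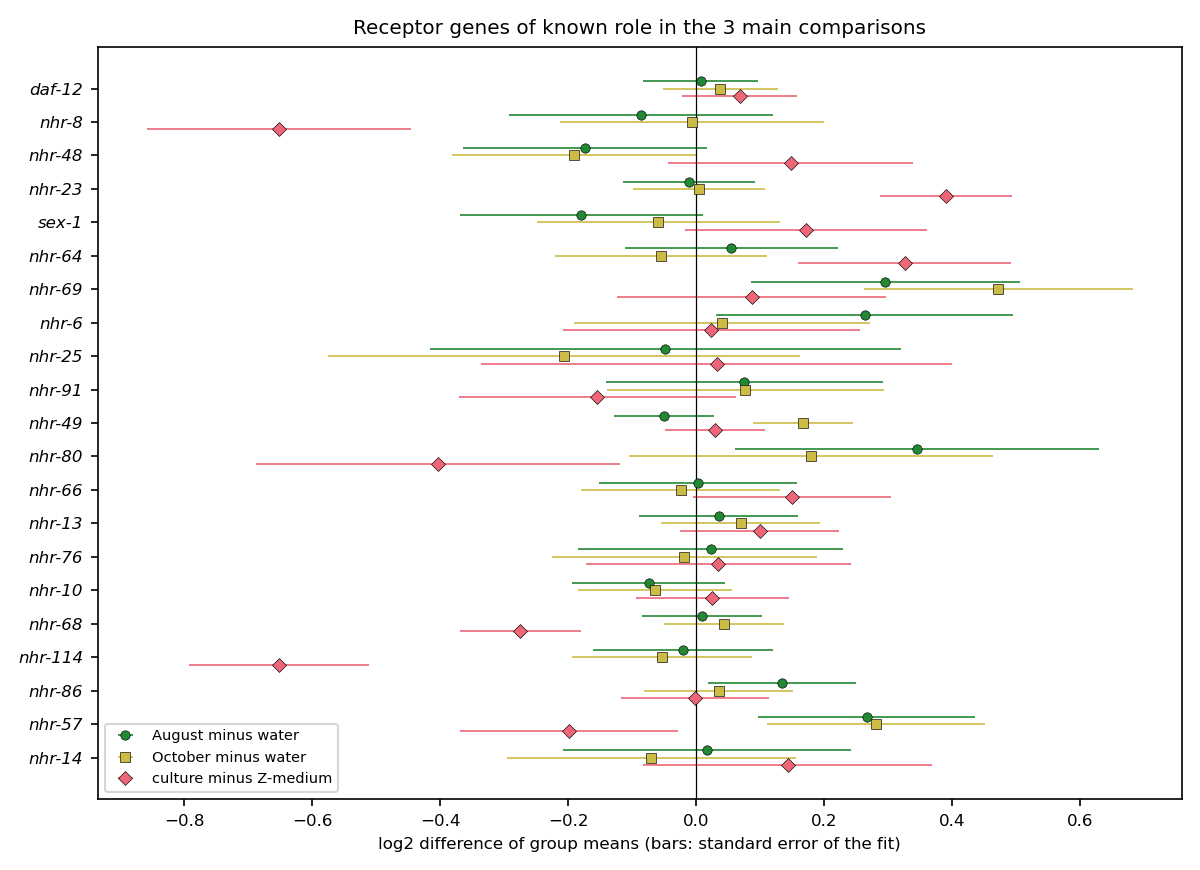
Log2 difference of group means (horizontal axis) for 21 tested receptors of known role, in the August, October and culture comparisons, with bars for the standard error of the fit. Of these only nhr-114 in the culture comparison passed; the August and October points shown lie between -0.21 (nhr-25) and 0.47 (nhr-69).

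By role, the 10 tested conserved receptors, the 6 fat metabolism receptors, the 3 B12-related receptors, the 4 molting receptors, the 6 xenobiotic and immunity receptors and the 2 tested neuronal or sex determination receptors held no gene that passed in August or October. The lists share members. In the culture 1 of the 3 B12-related receptors fell and none of the others passed. Median log2 differences in the culture were -0.27 for the B12-related receptors, -0.10 for xenobiotic and immunity, 0.05 for molting, 0.07 for fat metabolism, 0.08 for conserved and 0.10 for neuronal and sex determination receptors.

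Whether the culture effect differed from the mean effect of both lake samples was tested as a difference of differences. None of 107 receptors passed (limma, smallest adjusted p = 0.20 for nhr-106), and 0.266% of all probe sets did. At an unadjusted p under 0.05 there were 9 receptors, 8.41% against 8.54% of all probe sets. The difference of effects was -0.95 ± 0.24 (SE) for nhr-106, -0.98 for nhr-18 (adjusted p = 0.239), -0.61 ± 0.19 for nhr-114 (adjusted p = 0.316) and 0.39 for nhr-23 (adjusted p = 0.405). With a term for replicate 1 the nhr-106 difference of effects passed (-0.95, adjusted p = 0.0445). For nhr-114 a difference between culture and lake water was not shown, although it passed in the culture and not in the lake comparisons.

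The replicate 1 arrays differed from replicates 2 and 3 across the 5 groups, a split that was first seen in these data. Of 107 receptors 4 were lower and 2 higher in replicate 1 (limma, adjusted p under 0.05). That is 5.61% of receptors, against 18.1% of all probe sets (7.36% lower and 10.8% higher). At an unadjusted p under 0.05 there were 16, 15% against 31.3%. The labels name no date or batch behind the numbers.

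The X-chromosome dose sensor sex-1, which sets the sex of the embryo, read 472 in water, 424 in Z-medium, 389 in August, 451 in October and 526 in the culture on the replicate 1 arrays. On replicates 2 and 3 it lay at 479 to 601 outside the culture and at 520.4 and 773 in the culture. In each group the replicate 1 array was below the mean of the others (log2 difference -0.36 ± 0.08, SE; limma adjusted p = 0.00703), and both other probe sets of sex-1 passed as well (-0.40 and -0.31).

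The early embryonic receptor nhr-2 read 268.5 to 351 on the 5 replicate 1 arrays, with the culture highest, and 351 to 485 on the other 10, so the 2 sets of arrays met at the culture replicate 1 array. The difference was -0.41 ± 0.06 on the log2 scale (SE; limma adjusted p = 2.24e-04), lower in 5 of 5 groups. Of its 2 further tested probe sets, 1 passed (-0.63) and 1 did not (-0.33, adjusted p = 0.133). A mean over all its probe sets, which takes in another one far below the filter (mean signal 7.55), did not pass (-0.30, adjusted p = 0.246).

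The molting receptor nhr-25 read 109 to 152 in replicate 1 and 136 to 305 in the others (log2 difference -0.67 ± 0.17, SE; limma adjusted p = 0.0125). Without Z-medium replicate 1 it did not pass (log2 difference -0.60, adjusted p = 0.0594). The receptor nhr-12 was lower in replicate 1 in 5 of 5 groups (log2 difference -0.41 ± 0.09, adjusted p = 0.00491), with replicate 1 at 244 to 342.

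Higher in replicate 1 were nhr-88 (0.20 ± 0.06, SE; limma adjusted p = 0.0228) and nhr-179 (0.49 ± 0.15, adjusted p = 0.0345), each in 5 of 5 groups. The nhr-88 call was lost without the replicate 1 array of water (0.0662), Z-medium (0.0908) or August (0.0723), at log2 differences of 0.18 to 0.19. The nhr-179 call was lost without replicate 1 (0.133) or 3 (0.0578) of water, 1 (0.0767) or 2 (0.0511) of Z-medium, 1 (0.105) or 3 (0.0539) of August, and 1 (0.0829) or 2 (0.0540) of October, at 0.41 to 0.51. After median centring, which lowers all probe sets by 0.08 here, the differences were 0.12 for nhr-88 (adjusted p = 0.149) and 0.40 for nhr-179 (0.0566), neither of which passed. In that refit 13 receptors were lower, and the share of all probe sets is not given here. As a mean over its probe sets, which takes in one far below the filter (mean signal 4.76), nhr-88 did not pass either (0.15, adjusted p = 0.561). Its other tested probe sets were also higher in replicate 1 without passing (0.395, limma adjusted p = 0.171, and 0.3925, 0.0696). The nhr-179 difference did not pass with no filter (0.0833), with the 20th percentile filter (0.0511) or after quantile normalization (0.0666), at 0.43 to 0.49.

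**Figure D5:**
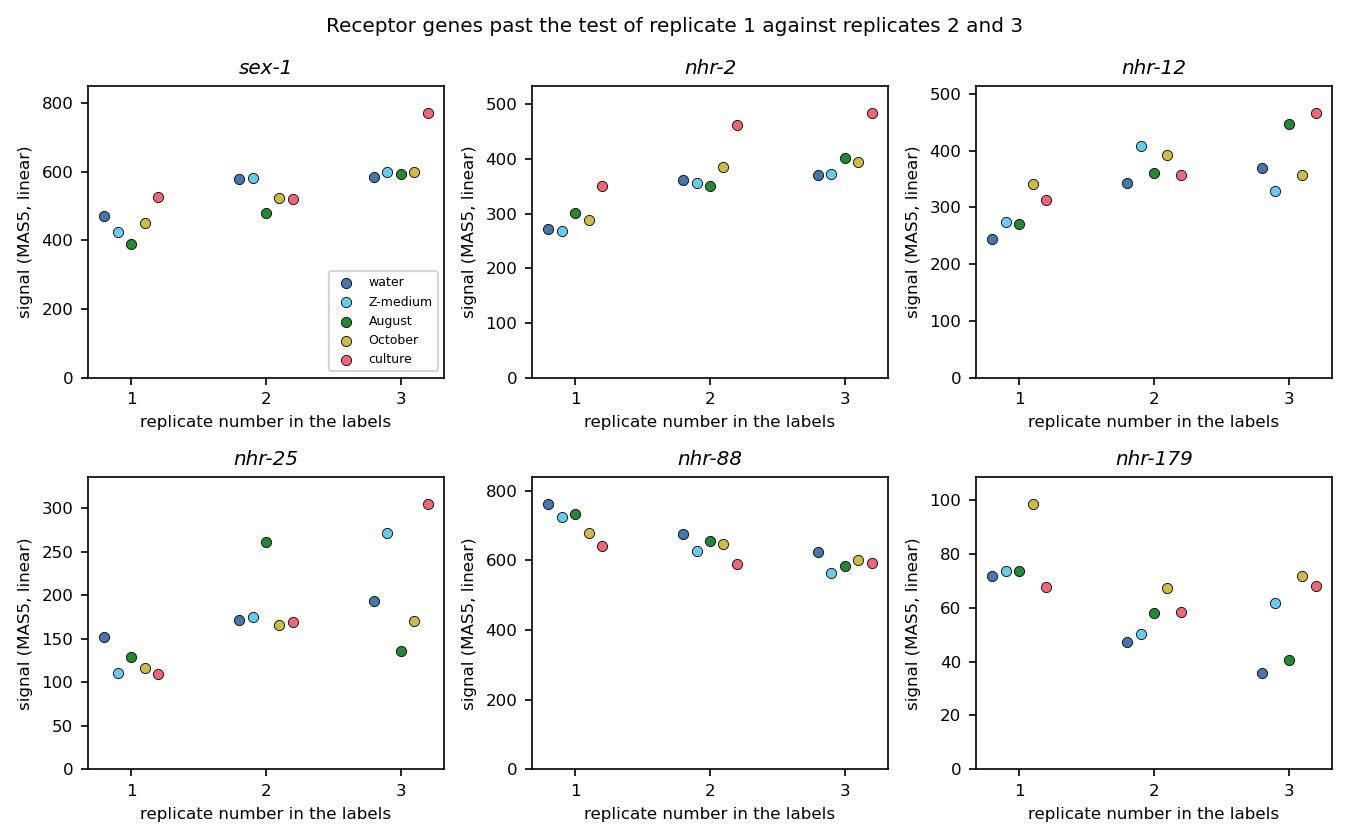
MAS5 signal (linear axis from 0) of the 6 receptors that differed between replicate 1 and replicates 2 and 3, by replicate number in the labels and coloured by group, 1 point per array. Replicate 1 lies lower for sex-1, nhr-2, nhr-12 and nhr-25 and higher for nhr-88 and nhr-179, where it reads 67.9 to 98.6; the last 2 stayed higher after median centring (0.12 and 0.40 on the log2 scale) but did not pass.

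Sperm markers differed along the same split. Of 6 tested sperm genes 4 rose in replicate 1, where 10.8% of all probe sets were higher and 7.36% lower (median log2 difference 0.73), with summed sperm signals of 6727 to 9633 against 3451 to 6453 in the other arrays and spe-9 and spe-38 below the filter. Of 8 oocyte and eggshell genes 1 fell and all 8 were below 0 (median -0.09), with sums of 52870 to 68840 against 54660 to 65800. Of 9 molting genes 3 rose and 1 fell. The part of germ-line makeup or of worm stage in the receptor differences was not tested.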

How the data were processed

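Per the submitters' processing notes, MAS5 and Affymetrix Expression Console 1.2.0.20 produced the deposited values, which are linear intensity per probe set. Array means, trimmed by 2% at each end, lay between 500.123 and 500.137, so arrays share 1 scale. All 15 columns were used; detection calls and raw scans were not analysed here. The array's build is not given in the sources used here, so no coordinates are printed, and no sequences were used.

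Values were log2 transformed without an offset. Without the 77 control probe sets 22548 remained, and 13529 of them passed a filter at the 40th percentile of mean log2 signal (5.86) and were tested. Of these 22548, 20766 carry 1 symbol, 887 several and 895 none. One linear model over 15 arrays (R 4.3.3 with limma 3.58.1, using lmFit and a trended eBayes) gave each contrast, with Benjamini-Hochberg adjustment over all tested probe sets. Every adjusted p in the text comes from limma. Errors of signals are SD over 3 arrays, errors of log2 differences SE of the model, and intervals cover 95%. Fold changes come from log2 means. Where 1 group's mean is below the filter, the filter level stands in for it in the fold. Such a fold is not the lower end of the 95% interval. The replicates are labelled biological and were grown in triplicate, and the number of arrays limits the precision. With 3 arrays against 3, an exact permutation test cannot go below p = 0.1.

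The members, the lists of roles, targets and markers, and the tests were chosen with earlier results of these data known. Named are members that passed, the largest differences, members of role lists, and of target lists the genes that passed or had the smallest p. The test was run on simulated data first.

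Replicate numbers were taken to pair samples where all 3 correlations of same-numbered deviations exceeded 0.1. They did for August and water (0.534, 0.2, 0.311), October and August (0.457, 0.214, 0.228) and Z-medium and water (0.563, 0.209, 0.389). The replicate 1 arrays stood apart in all groups, so these correlations cannot tell pairing apart from that shared shift. The main fit had no replicate block. Alternatives covered the filter, scaling, offset, intensity trend, choice of probe set, samples in the fit, replicate block, a term for replicate 1, and leaving out arrays.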

Additional observations from a re-analysis of the deposited data

Results flagged for a closer look

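In 3 genes that act under receptors or mark the intestine, the culture effect differed from the mean effect of both lake samples by a test of that difference. For fat-7 the difference of effects was -1.38 ± 0.16 on the log2 scale (SE; limma adjusted p = 3.74e-04), from log2 differences of -1.06 in the culture, 0.73 in August and -0.08 in October. For the intestinal protease gene cpr-1 it was -0.80 ± 0.10 (adjusted p = 0.00125), from -0.72, 0.08 and 0.08. For irg-4 it was 1.29 ± 0.22 (adjusted p = 0.0187), from 1.19, 0.06 and -0.27. The irg-4 difference did not pass without water replicate 2 (adjusted p = 0.0796), Z-medium replicate 2 (0.0745) or 3 (0.0710), or culture replicate 1 (0.0671) or 3 (0.0638), at a difference of 1.2009 to 1.2575, or with no intensity trend (0.0506). Among the receptors, the culture arrays of nhr-18 all lay below the Z-medium arrays (-0.47), while its August and October arrays all lay above the water arrays (0.42 and 0.59). The difference of these effects, -0.98 ± 0.27 (SE), did not pass (limma adjusted p = 0.239). The 2 directions were read against different controls, and Z-medium itself lay above water for nhr-18 (0.37) without overlap. The mean of nhr-18 was 56.0 in the culture, below the filter level, 77.7 in Z-medium and 59.9 in water.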

How the results depend on the processing

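Under the alternatives run, 0 receptors passed in August, October, October against August, or Z-medium against water. In the culture comparison 2 passed (nhr-114 and nhr-106). The count was 0 after median centring, 1 with only Z-medium and culture arrays in the fit (nhr-114), and 3 with no filter, with the 20th percentile filter or without the 5 replicate 1 arrays. It was 8 with the replicate number as a block (2 higher, 6 lower, including nhr-23, nhr-115 and nhr-8) and 7 with a term for replicate 1 (2 higher, 5 lower). The shares of all probe sets that passed in the refits of this paragraph are not given here. A change in a count is therefore not read as particular to receptors. Leaving out 1 array gave 0 to 2: 0 without Z-medium replicate 1 or 2 or culture replicate 2, and 1 without Z-medium replicate 3. The numbers are not shown to pair these 2 groups (correlations 0.357, -0.033 and 0.263), nor October and water (0.467, 0.064 and 0.138). The block changed no other count of receptors. In the culture against lake effect 0 passed, 1 (nhr-106) with a term for replicate 1, and 0 to 0 when 1 array was left out; a fit on only the groups compared could not differ there, since all 15 arrays enter. For replicate 1 the count was 6, or 13 after median centring (0 higher, 13 lower), and 4 to 8 when 1 array was left out, with 4 without replicate 1 of water or of Z-medium. Of 59 named log2 differences none changed sign in 1125 refits: 1040 stayed on their side of the threshold, 66 lost and 19 gained the call. These 59 mostly passed or had a small unadjusted p, which favoured stable signs. Differences near 0, such as that of nhr-86 in the culture (-0.0014), were not among them. The cause of the lost and gained calls was not tested. Low signal limits the set: the median SE of a log2 difference was 0.20 for tested receptors and 0.15 for all probe sets, and 152 of 259 genes had no test.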

Other observations

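One of the receptors below the filter, nhr-210, had its own lowest signals on the culture arrays. It was chosen after its values were seen. Its signal was 86.4, 45.7 and 57.2 in water, 51.45, 36.2 and 74.5 in Z-medium, 73.2, 59.0 and 47.5 in August, and 32.2, 80.02 and 57.5 in October. On the culture arrays it was 7.45, 9.76 and 8.59, the lowest 3 of the 15. In a limma fit without the filter it was the only one of the 152 receptors below the filter to pass against Z-medium (adjusted p = 0.00416). The share of all probe sets that passed in that fit is not given here, and with the filter it was 1.54%. The size of the difference is not given, since both group means lie below the filter level. The difference of the culture effect from the mean lake effect did not pass (limma adjusted p = 0.129).

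Some receptors gave different values on their other probe sets. For nhr-2 a dimmer probe set had a log2 difference of 0.90 in August against water (limma, unadjusted p = 0.00327, adjusted p = 1.00) and of -0.91 in October against August, while the probe set used for the gene lay close to 0 in both. For nhr-45 a dimmer probe set read 149.0, 121.0 and 115.6 in Z-medium and 65.8, 104.3 and 64.6 in the culture (log2 difference -0.74, limma adjusted p = 0.104), and the brighter one overlapped between these groups at 130.1 to 162.1 and 93.0 to 159.9.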
